A study of Mus musculus with 3 samples.

Results

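The NRF2 target and glutathione genes described here were 10 of the 32285 genes counted in single-cell libraries of mouse lung endothelial cells (ECs). They were Srxn1, Gclc, Gclm, Txnrd1, Nqo1, Hmox1, Slc7a11, Gsr, Prdx1 and Nfe2l2, listed by symbol. Srxn1, Gclc, Gclm and Txnrd1 were chosen by their low counts 30 h after melanoma cell injection in these same libraries, and the other 6 genes were listed with that result known. All 30 h values of the 10 genes are therefore given as a description, with no test. The genes were counted in 31092 EC barcodes, which had 1000 to 5000 detected genes, under 20% of UMIs (tags that each mark 1 captured RNA molecule) from mitochondrial genes and at least 2 UMIs of the endothelial genes Pecam1 and Cdh5 together.

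All 3 libraries came from lungs of C57BL/6 WT mice, digested with collagenase at 37 °C and sorted for cells with Pecam1 and without Ptprc, the CD45 gene. The control library was from mice given PBS through the tail vein and taken after 6 h, and mice of the other libraries received 200000 B16-F10 cells, a mouse skin melanoma line, in 100 µl and were taken at 6 h or at 30 h. Per the labels, each treatment had 2 mice, which the 1 library of a group does not keep apart, and the 6 h library also received sorted melanoma cells marked by a tracker dye. The study's methods give another number of mice, which was not settled here, and the ages they give are those of young adults. No library of PBS-treated mice at 30 h was analysed here, so the effect of time after injection and that of the melanoma cells cannot be told apart at 30 h. Each group had 1 library, and so none of the differences could be checked against replicates.

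NRF2, the protein of Nfe2l2, is a transcription factor that KEAP1 binds and hands to a ubiquitin ligase for degradation. Oxidants and electrophiles modify KEAP1, NRF2 then accumulates, pairs with small MAF proteins and binds antioxidant response elements (AREs) near genes of glutathione synthesis, of thioredoxin-dependent repair and of quinone and haem breakdown. Capillary ECs of the lung lie against the air space and use these enzymes against oxygen-derived species.

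Promoter windows of 250 bases before to 50 bases after a RefSeq start site (GRCm38.p6) were at hand for 7 of the 10 genes, in 9 windows, and none was printed for Gclc, Hmox1 and Gsr. The windows of Srxn1 and Prdx1 are shown because both hold the core letters of an ARE while their 30 h ratios to the control lay far apart. The ARE core was searched on both strands as TGACNNNGC and, added after the first results had been seen, as TGAGNNNGC. The 9 letters of each match are in capitals, on whichever strand they read.
Srxn1, chr2:152105274-152105573, plus strand: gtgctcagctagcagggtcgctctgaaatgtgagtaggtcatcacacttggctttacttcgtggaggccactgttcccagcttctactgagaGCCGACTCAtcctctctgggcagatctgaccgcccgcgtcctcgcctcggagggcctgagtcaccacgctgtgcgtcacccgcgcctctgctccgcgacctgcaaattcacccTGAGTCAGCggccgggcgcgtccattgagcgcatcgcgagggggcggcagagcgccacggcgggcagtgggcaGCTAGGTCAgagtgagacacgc
Prdx1, chr4:116685349-116685648, plus strand: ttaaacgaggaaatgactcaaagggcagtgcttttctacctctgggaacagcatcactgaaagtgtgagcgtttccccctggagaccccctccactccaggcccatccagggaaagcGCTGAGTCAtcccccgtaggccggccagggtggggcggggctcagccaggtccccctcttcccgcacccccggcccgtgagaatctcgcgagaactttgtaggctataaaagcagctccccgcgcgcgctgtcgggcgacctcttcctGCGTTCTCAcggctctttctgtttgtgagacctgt
In the Srxn1 window the matches read TGAGTCGGC on the minus strand 158 bases before the start site, TGAGTCAGC on the plus strand 45 bases before it and TGACCTAGC on the minus strand 28 bases after it. In the Prdx1 window they read TGACTCAGC on the minus strand 133 bases before the start site and TGAGAACGC on the minus strand 15 bases after it. In each of these windows 1 match overlapped an AP-1 site (TGANTCA). Gclm held TGACGGTGC 134 bases before its start site, the second window of Txnrd1 held TGACAAAGC 92 bases before it, Nfe2l2 held TGACTCCGC 240 bases before it and Slc7a11 held TGAGAAAGC 97 bases before it. The Nqo1 window held neither form of the letters, and sequence outside the windows was not searched. TGACNNNGC was thus in the windows of 5 of the 7 genes and either form in those of 6, where 14.0% and 30.8% of all 27025 genes with a window held them. TGANTCA was in the windows of 2 of the 7 and of 8.97% of all genes. Txnrd1 has 3 windows and so more room for a match than genes with 1. A match describes letters only and was not measured as a binding site.

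Libraries held 140601123 (control), 132566934 (6 h) and 124085451 (30 h) UMIs in total, and EC barcodes numbered 11231, 10583 and 9278 with a median of 7782, 8033 and 8675.5 UMIs. Their UMIs were summed per library and scaled to counts per 1000000 UMIs (CPM). All intervals below are exact, at 95%, and cover counting error only. Pairs of libraries shared 22 to 38 EC barcodes, at most 0.399% of the smaller library. Summed CPM of 7 pan-endothelial markers was 6960, 6862 and 8512 in control, 6 h and 30 h ECs, and all 7 were higher at 30 h than in the control. RNA of some other cell types differed between the libraries. Platelet genes (141, 171 and 141 CPM in control, 6 h and 30 h ECs), fibroblast genes (35.3, 27.3 and 36.4 CPM) and pericyte and smooth muscle genes (81.2, 77.5 and 84.7 CPM) were near the control at 30 h. Lymphocyte genes summed to 6.87, 9.18 and 18.6 CPM. Red cell genes summed to 3249, 2119 and 829 CPM in the same order (5 of 5 genes lower at 30 h), alveolar epithelial genes to 1177, 932 and 792 CPM (7 of 8 lower), airway genes to 329, 252 and 213 CPM (3 of 5 lower), macrophage genes to 97.5, 115 and 60.4 CPM (5 of 10 lower) and neutrophil genes to 5.71, 41.9 and 10.6 CPM (0 of 5 lower), while the defining alveolar marker Sftpc was at 423, 305 and 139 CPM and mesothelial markers were at or below 0.172 CPM. Gene models that overlap ribosomal RNA were all higher at 30 h than in the control (7 of 7, median log2 ratio 2.10), led by Cmss1 (481 to 2914 CPM), Cdk8 (178 to 1055 CPM) and Gm19951 (4.20 to 24.9 CPM). What part these played in the values below was not tested.

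The first enzyme of glutathione synthesis, glutamate-cysteine ligase, is made of the catalytic subunit Gclc (chr9:77754535-77794485) and the modifier subunit Gclm (chr3:122245557-122270732). Gclc was counted at 149.5 CPM in control ECs, 141.2 CPM at 6 h and 39.0 CPM at 30 h. Gclm was counted at 256.9, 213.7 and 77.7 CPM in the same order. Both subunits were lowest at 30 h, with no overlap of the counting intervals between any 2 libraries. The log2 ratio of Gclc was −0.08 (−0.12 to −0.05) at 6 h and −1.94 (−2.00 to −1.88) at 30 h against the control, 3.84-fold lower, and that of Gclm was −0.27 (−0.29 to −0.24) and −1.72 (−1.77 to −1.68), 3.31-fold lower. Slc7a11 (chr3:49892526-50443614) is the light chain of the cystine importer that feeds this pathway. It had 98 UMIs in control ECs, 187 at 6 h and 40 at 30 h, or 1.08, 2.14 and 0.491 CPM, and so failed the filter, which asked for 5 CPM averaged over libraries. The log2 ratio was 0.99 (0.63 to 1.36) at 6 h and −1.14 (−1.70 to −0.59) at 30 h, and the 6 h ratio ran from 0.22 to 1.12 over the alternatives. Its counts came from few barcodes: 5 barcodes held 42.9% of its UMIs in the control and 45.5% at 6 h. Of the 7 barcodes with at least 5 Slc7a11 UMIs at 6 h, 5 carried at least 5 UMIs of neutrophil genes, which 0.104% of all 6 h EC barcodes did. Gsr (chr8:33652523-33698163), glutathione reductase, which turns oxidised glutathione back to its reduced form, was at 81.2, 65.5 and 37.8 CPM. Its log2 ratio was −0.31 (−0.36 to −0.26) at 6 h and −1.10 (−1.17 to −1.04) at 30 h.

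Srxn1 (chr2:152105516-152111376) is sulfiredoxin, which repairs peroxiredoxins that have been overoxidised. It was at 42.8 CPM (41.5 to 44.2) in control ECs and 44.1 CPM (42.7 to 45.5) at 6 h, from 3893 and 3852 UMIs, and at 6.58 CPM from 536 UMIs at 30 h. The control and 6 h intervals overlapped, and the 30 h level was 6.51-fold lower than the control (log2 ratio −2.70, interval −2.84 to −2.57). Txnrd1 (chr10:82833951-82897712), the cytosolic thioredoxin reductase that passes electrons from NADPH to thioredoxin, was at 100.5, 88.2 and 27.0 CPM in control, 6 h and 30 h ECs. Its log2 ratio was −0.19 (−0.23 to −0.14) at 6 h and −1.89 (−1.96 to −1.83) at 30 h. Prdx1 (chr4:116685544-116700822), the cytosolic peroxiredoxin that removes hydrogen peroxide, stayed nearest to its control level at 30 h. It was counted at 501.7 CPM in control ECs, 613.9 CPM at 6 h and 461.9 CPM at 30 h. The log2 ratio was 0.29 (0.27 to 0.31) at 6 h and −0.12 (−0.14 to −0.10) at 30 h, so that its largest difference from the control was at 6 h and upward.

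Nqo1 (chr8:107388225-107403206) reduces quinones without forming radicals and is widely used as a readout of NRF2. It was at 21.4, 21.0 and 2.50 CPM, from 1940, 1831 and 204 UMIs. Its 6 h log2 ratio of −0.03 had an interval across 0 (−0.12 to 0.07), and its 30 h ratio was −3.09 (−3.31 to −2.88), 8.53-fold lower. Ranked from the lowest 30 h ratio of (CPM + 1) among the 10175 genes that passed the filter, Nqo1 was 1, Srxn1 2, Gclc 9, Txnrd1 12, Gclm 20, Hmox1 51, Gsr 69, Nfe2l2 564 and Prdx1 4396. These genes were chosen by this difference or listed with it known, so nothing is read from the ranks. Nqo1, at 2.50 CPM at 30 h, passed the filter through the other libraries. Hmox1 (chr8:75093621-75100589), haem oxygenase, which opens haem to biliverdin, iron and carbon monoxide, was at 17.4, 19.3 and 6.86 CPM. Its log2 ratio was 0.15 (0.05 to 0.25) at 6 h and −1.34 (−1.48 to −1.20) at 30 h. Where only barcodes with no UMI of Hspa1a, Hspa1b, Atf3 and Fos were counted, the 6 h ratio was −0.32, so the direction of Hmox1 at 6 h depended on which barcodes were used. Nfe2l2 (chr2:75675513-75704641), the gene of NRF2 itself, was at 212.3, 201.4 and 145.1 CPM. Its log2 ratio was −0.08 (−0.11 to −0.05) at 6 h and −0.55 (−0.58 to −0.52) at 30 h, 1.46-fold lower and just short of the 1.5-fold limit used below.

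**Figure D1:**
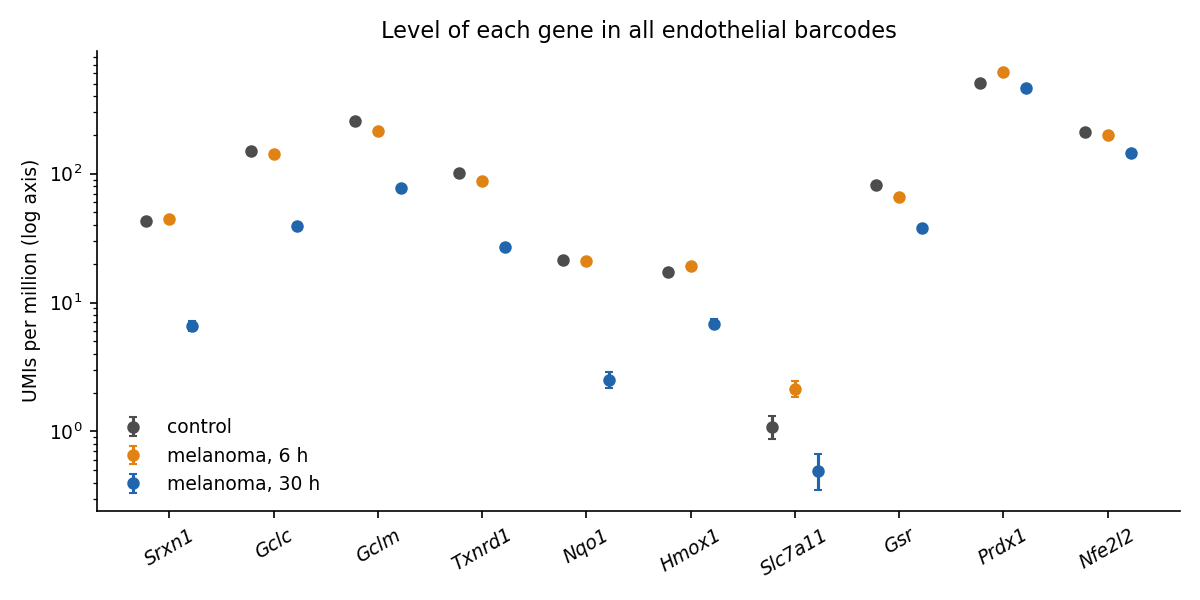
Level of each gene in CPM (log axis) in all EC barcodes of the control, 6 h and 30 h libraries; points are sums over 1 library and bars 95% exact Poisson intervals. The 30 h point lies lowest for all 10 genes, from 2.50 CPM against 21.4 CPM for Nqo1 to 461.9 CPM against 501.7 CPM for Prdx1.

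A gene was counted as lower or higher when its (CPM + 1) differed by at least 1.5-fold, among genes that averaged 5 CPM or more. Of the 10 genes 9 passed that filter. At 30 h against the control 7 of the 9 were lower, where 4.39% of all 10175 genes were lower, and 0 were higher, where 4.24% were. Because 4 of these genes were chosen by that difference and the rest with it known, nothing is read from the count. At 6 h against the control 0 were lower and 0 higher, where 1.14% of all genes were lower and 1.8% higher. At 30 h against 6 h, which shares the 30 h library with the first comparison, 7 were lower and 0 higher, against 4.61% and 4.69% of all genes. The median log2 ratio of the 9 genes was −0.08 at 6 h and −1.71 at 30 h against the control, and that of all genes −0.01 and −0.07. At 6 h the median of the 9 genes thus lay near that of all genes, while single genes lay on both sides. Prdx1 was farthest above (rank 9404 from the lowest of 10175), and Gsr and Gclm were farthest below (ranks 661 and 917).

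**Figure D2:**
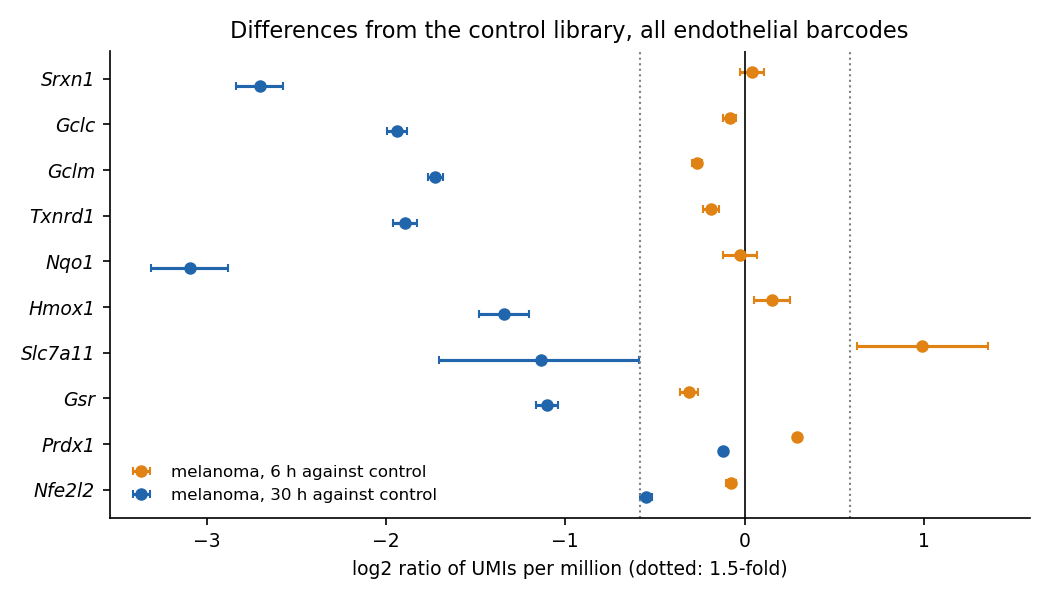
Log2 ratio of CPM to the control in all EC barcodes, for the 6 h and the 30 h library, for each gene; bars are exact 95% counting intervals and dotted lines mark 1.5-fold. The 6 h points of the 9 genes that passed the filter lie between −0.31 and 0.29, and the 30 h points run from −3.09 for Nqo1 to −0.12 for Prdx1.

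The EC barcodes were then divided by marker genes into general capillary cells (gCap), aerocytes (aCap, the wide capillary cells of gas exchange), arteries, veins and lymphatic ECs (LEC). A class needed at least 3 UMIs from 2 genes of its panel and of no other panel, and gCap barcodes at least 2 UMIs of the gCap panel and no other class. The gCap class held 5560, 5671 and 4434 barcodes in control, 6 h and 30 h ECs and the aCap class 3145, 2852 and 2870. Median UMIs of the 6-gene aCap panel were 9, 8 and 9 in aCap barcodes and 1 in gCap barcodes of each library, while the gCap panel had 29, 28 and 32 UMIs in gCap and 20, 19 and 13 in aCap. The artery class held 432, 405 and 554 barcodes and the vein class 1025, 819 and 608. LEC barcodes numbered only 45, 47 and 41, so their values are given where they stood out. Its panel gene Tbx3 let many barcodes into the aCap class. Without Tbx3, an alternative added after seeing the data, it held 1830, 1594 and 1810 barcodes, and its aCap values are given below where a statement rests on them.

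In control lungs aCap had the highest level of 8 of the 10 genes, though not always beyond counting error. Slc7a11 had 45 UMIs in aCap and 44 in gCap, a log2 ratio of 0.35 with an interval across 0 (−0.29 to 0.98). For Gsr and Nfe2l2 the intervals of aCap and LEC overlapped. Srxn1 was at 78.5 CPM in aCap, 33.8 CPM in arteries, 26.1 CPM in gCap, 15.5 CPM in veins and 9.48 CPM, from 3 UMIs, in LEC. The order of the 4 blood vessel classes was the same for Gclc (198.3, 140.1, 133.7 and 86.7 CPM) and Gclm (332.9, 317.7, 225.3 and 137.9 CPM), with aCap first and veins last. Artery and gCap levels of Gclc differed by less than their counting intervals, as did artery and aCap levels of Gclm. The aCap level exceeded the gCap level by a log2 ratio of 1.77 (1.61 to 1.94) for Nqo1, 1.59 (1.48 to 1.70) for Srxn1, 1.20 (1.03 to 1.36) for Hmox1 and 0.54 to 0.57 for Gclc, Gclm and Gsr. For Nfe2l2 it was 0.41, for Txnrd1 0.22 and for Prdx1 0.12. Without Tbx3 in the panel the control ratio was 2.31 for Nqo1 and 2.02 for Srxn1. Nqo1 and Hmox1 were highest in LEC, at 50.6 and 44.3 CPM from 16 and 14 UMIs, against 36.8 and 28.0 CPM in aCap, with overlapping counting intervals. Alveolar RNA was not uniformly higher in aCap: the summed list was at 1518 CPM in aCap and 1011 CPM in gCap of the control, with Hopx at 1119 and 437 CPM and Sftpc at 310 and 460 CPM.

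At 30 h all 4 blood vessel classes held less of the 4 chosen genes than in the control. Of the 9 genes that passed the filter in each class, 7 were lower by 1.5-fold in gCap, 8 in aCap, 7 in arteries and 6 in veins, against 4.97%, 5.47%, 8.63% and 6.64% of all genes tested in those classes. These counts use the comparison by which genes were chosen, and nothing is read from them. The size of the difference varied between classes. Srxn1 in aCap went from 78.5 CPM in the control to 8.42 CPM at 30 h, that is by a log2 ratio of −3.22 (−3.42 to −3.03), and in gCap from 26.1 to 5.48 CPM, a ratio of −2.25 (−2.49 to −2.02). Txnrd1 gave −2.37 (−2.49 to −2.25) in aCap, −1.85 (−1.96 to −1.75) in gCap and −0.97 (−1.19 to −0.76) in veins. The intervals of aCap and gCap did not overlap for either gene. Without Tbx3 the 30 h ratio in aCap was −3.53 for Srxn1, −2.66 for Txnrd1, −2.52 for Hmox1 and −3.55 for Nqo1. Hmox1 gave −2.10 (−2.33 to −1.87) in aCap, −0.80 (−1.04 to −0.57) in gCap and −0.47 (−1.06 to 0.10) in veins. Nqo1 gave −3.55 (−3.87 to −3.24) in aCap and −3.29 (−3.83 to −2.80) in gCap, with overlapping intervals. Veins had the smallest 30 h difference of Srxn1, Gclc, Gclm, Txnrd1, Nqo1, Hmox1, Gsr and Nfe2l2 among the 4 classes, though not always beyond counting error. The Hmox1 intervals of veins and gCap overlapped. Srxn1 in veins had 28 UMIs at 30 h, and without Tbx3 its ratio was −2.05 there and −2.24 in gCap. Prdx1 lay between −0.19 and 0.05 in all 4.

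The gap between aCap and gCap was smaller at 30 h for several genes. It follows from the class ratios above and adds no separate support, and Srxn1, Gclm and Txnrd1 are among the chosen genes. The aCap to gCap log2 ratio of Srxn1 was 1.59 in the control, 2.03 (1.92 to 2.15) at 6 h and 0.62 (0.34 to 0.91) at 30 h, and without Tbx3 in the panel 2.02, 2.55 and 0.73. That of Gclm was 0.56, 1.23 (1.19 to 1.28) and 0.27 (0.19 to 0.35), and without Tbx3 0.78, 1.68 and 0.43. Hmox1 did not differ between both classes at 30 h beyond counting error (−0.10, interval −0.38 to 0.18, without Tbx3 −0.14), and Txnrd1 was then lower in aCap than in gCap (−0.29, interval −0.44 to −0.14, without Tbx3 −0.49). Both classes then held Txnrd1 (22.3 and 27.2 CPM) and Hmox1 (6.54 and 7.00 CPM) at levels inside the intervals of free RNA in empty droplets, 20.9 to 29.5 and 4.82 to 9.43 CPM. Srxn1 and Nqo1 in aCap (8.42 and 3.15 CPM) also lay inside theirs, 6.23 to 11.3 and 1.15 to 3.88 CPM. In gCap both genes lay below these intervals (5.48 and 1.10 CPM). Nqo1 kept a higher level in aCap, with a ratio of 1.77 in the control, 2.13 at 6 h and 1.52 (0.95 to 2.12) at 30 h, and without Tbx3 of 2.31, 2.67 and 2.27. LEC kept Nqo1 at 50.6, 56.8 and 37.7 CPM in control, 6 h and 30 h libraries, a 30 h log2 ratio of −0.42 with a wide interval (−1.54 to 0.69), from 16, 20 and 15 UMIs.

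At 6 h Srxn1 and Gclm differed in direction between gCap and aCap, with both counting intervals clear of 0. Gclc (133.7 to 115.9 CPM in gCap, 198.3 to 204.4 CPM in aCap) and Nqo1 (10.8 to 9.39 and 36.8 to 41.0 CPM) also differed in sign. For these genes the 2 intervals were not both clear of 0. Of the 9 genes that passed the filter, 7 were lower than the control in gCap and 3 in aCap. Srxn1 was lower than the control in gCap (26.1 to 22.5 CPM, log2 ratio −0.21, interval −0.35 to −0.08) and in arteries (33.8 to 23.4 CPM, −0.53, interval −0.96 to −0.11), and higher in aCap (78.5 to 92.3 CPM, 0.23, interval 0.15 to 0.32). Gclm was lower in gCap (225.3 to 149.3 CPM, −0.59, interval −0.64 to −0.55), arteries (−0.53, interval −0.66 to −0.39) and veins (−0.36, interval −0.48 to −0.23), and slightly higher in aCap (332.9 to 351.0 CPM, 0.08, interval 0.04 to 0.12). These intervals leave out the spread between barcodes, and the aCap difference of Gclm was small. Without Tbx3 in the aCap panel the aCap ratios were 0.34 for Srxn1 and 0.31 for Gclm. The near-control 6 h level of Srxn1 in all ECs thus summed classes that differed in direction. Gsr was lower in gCap (−0.46) and in aCap (−0.24), and Prdx1 was higher in gCap, aCap, arteries and veins by 0.29, 0.30, 0.36 and 0.20. In LEC Hmox1 was at 44.3 CPM in the control and 90.8 CPM at 6 h (1.04, interval 0.09 to 2.06), from 14 and 32 UMIs.

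**Figure D3:**
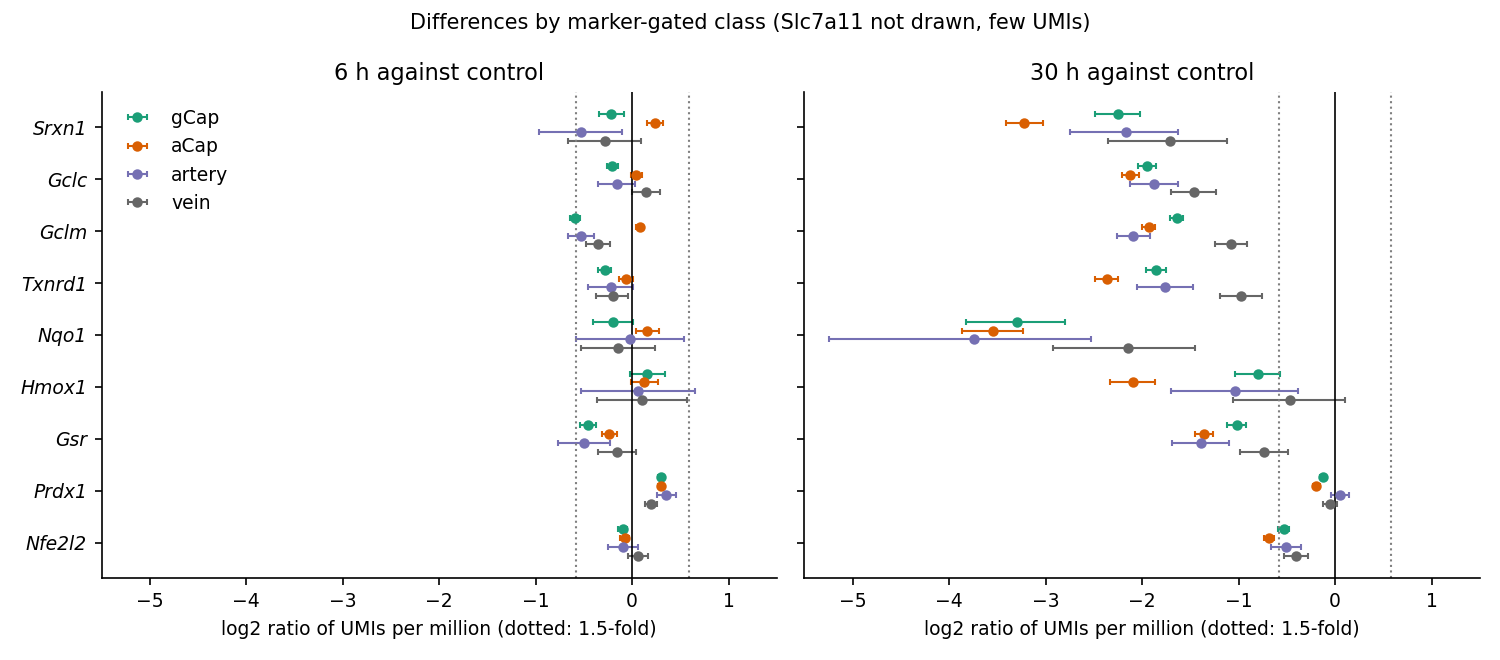
Log2 ratio to the control for 6 h and 30 h (panels) for each gene in gCap, aCap, artery and vein barcodes; bars are exact 95% counting intervals and Slc7a11 is not drawn. At 6 h Srxn1 and Gclm lie below 0 in gCap (−0.21 and −0.59) and above it in aCap (0.23 and 0.08), and at 30 h Srxn1 reaches −3.22 in aCap against −1.71 in veins.

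The same UMIs were counted by barcode, which is a further description of these counts and no separate support. To set libraries of unequal depth side by side, each barcode was thinned to 2000 UMIs, which left out 195, 197 and 111 shallower EC barcodes of the control, 6 h and 30 h libraries. Srxn1 was then found in 7.15% (6.68 to 7.65) of control barcodes, 7.19% at 6 h and 1.16% (0.948 to 1.40) at 30 h, and without thinning in 20.8%, 20.8% and 5.20%. Gclm was found in 32.4%, 28.7% and 13.6% after thinning and in 64.9%, 61.7% and 43.3% before. Nqo1 was found in 3.61%, 3.61% and 0.393% after thinning and in 12.1%, 12.1% and 1.89% before. Prdx1 was found in most barcodes of each library, at 61.1%, 67.5% and 58.4%. No sorted cell type that lacks these genes was at hand. Barcodes with no UMI of Pecam1 or Cdh5, which hold other lung cells that can make the genes themselves (27, 25 and 25 of 123, 118 and 94 held at least 5 alveolar epithelial UMIs), are given beside them, with 101, 101 and 87 barcodes after thinning and median depths of 2761, 4062 and 3425.5 UMIs against 7782, 8033 and 8675.5 in ECs. There Srxn1 was found in 0.990%, 7.92% and 4.60% and Gclm in 24.8%, 22.8% and 13.8%. These barcodes do not measure background, and no share is read against them.

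**Figure D4:**
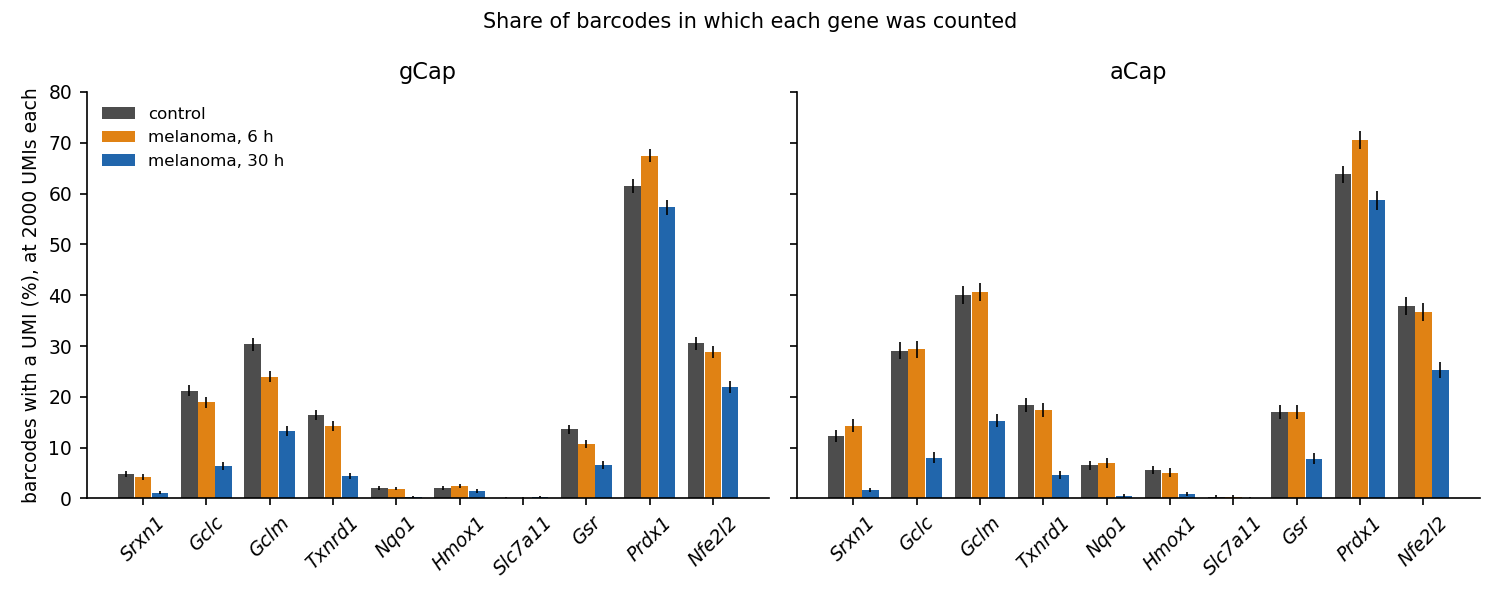
Share of gCap and aCap barcodes with at least 1 UMI of each gene in the control, 6 h and 30 h libraries, after thinning to 2000 UMIs per barcode; bars start at 0 and error bars are 95% exact binomial intervals. Srxn1 is found in 12.3%, 14.3% and 1.61% of aCap barcodes and in 4.80%, 4.24% and 1.17% of gCap barcodes.

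Counts of Srxn1, Gclc, Gclm and Txnrd1 were also added up within each thinned barcode. The mean was 1.06 UMIs in the control, 0.935 at 6 h and 0.287 at 30 h, and 45.2%, 47.5% and 75.9% of barcodes had none. Barcodes with at least 3 of these UMIs made up 12.2%, 9.44% and 0.665%. In aCap they made up 19.2%, 20.5% and 0.386%, and in gCap 10.6%, 5.67% and 0.459%. The variance of the sum was 1.89, 1.76 and 1.13 times its mean. The highest count of Srxn1 in 1 unthinned barcode was 15 in the control, 28 at 6 h and 3 at 30 h, and 97, 126 and 0 barcodes had at least 5. Of these barcodes 90 of 97 in the control and 121 of 126 at 6 h also held at least 5 UMIs of alveolar epithelial genes, a list that includes Hopx, against 45.5% and 42.2% of all EC barcodes. For Hmox1 it was 17 of 18 and 15 of 20. In control aCap, Hopx gave 33332 of the 45223 UMIs of that list. Hopx was higher in control aCap than in gCap (1119 and 437 CPM), while Sftpc was lower (310 and 460 CPM). The barcodes were not matched for class or depth, and the part of alveolar RNA in these counts was not tested.

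Barcodes that held Srxn1 held more of several of the other genes, and were deeper as well. In control gCap, 744 barcodes with an Srxn1 UMI had a median of 7695 UMIs and 4816 without had 6288.5. Gclm was at 427.4 CPM in the first and 187.3 CPM in the second, a log2 ratio of 1.19 (1.12 to 1.26). The ratio was 0.81 for Txnrd1, 0.63 for Gclc and 0.16 for Prdx1. In control aCap, with 1168 barcodes against 1977, it was 1.35 (1.15 to 1.57) for Hmox1, 1.20 (1.03 to 1.38) for Nqo1 and 1.00 (0.94 to 1.06) for Gclm. At 6 h the Gclm ratio was 0.47 in gCap and 1.41 (1.34 to 1.47) in aCap, and at 30 h 0.67 (0.43 to 0.91) in gCap and 0.16 (−0.03 to 0.35) in aCap. Some ratios were near or below 0: Nfe2l2 was at −0.06 in gCap at 6 h, Prdx1 at −0.06 in gCap at 30 h, and Hmox1 at −0.29 (−1.19 to 0.50) and Gsr at −0.07 in aCap at 30 h. The barcodes are cells of 1 library each and not replicates. The split by Srxn1 was not repeated without Tbx3 in the aCap panel, and the part of mixed cells within aCap was not tested.

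Genes whose levels followed the 4 chosen genes most closely were ranked by Pearson's r over 12 profiles, which were the 3 libraries in gCap, aCap, artery and vein. The profiles share libraries and depth, and r is given as a description. Because the 4 genes were chosen by their low 30 h counts, any gene low in the 30 h profiles tends to a high r. Nothing is read from the place of the other listed genes in this order. Among 10160 genes the 10 highest were Psmd11 (0.972), Rc3h1 (0.972), A630072M18Rik (0.969), Stard7 (0.965), Gsr (0.963), Rnf115 (0.963), Nfe2l2 (0.961), Wdr26 (0.959), Zfand5 (0.957) and Chpf2 (0.956). Nqo1 ranked 21 (0.945), Hmox1 25 (0.944) and Prdx1 1902 (0.652). The size of a difference does not enter r. At 30 h the log2 ratio of (CPM + 1) to the control ran from −1.71 (Gclm) to −2.53 (Srxn1) among the 4 chosen genes. Among the highest genes by r that are not of the 10 described here, it ran from −0.37 (Zfand5) to −0.92 (Chpf2). By Spearman's rho 2 of the 10 highest genes were shared with this order.

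The other genes of the pathway came from 7 lists on NRF2 control, glutathione, thioredoxin and peroxiredoxin, NADPH supply, haem and iron, other NRF2 target enzymes, and superoxide and peroxide removal, 106 genes in all. Of the 87 that passed the filter, 8 were lower and 3 higher at 30 h than in the control, where 4.39% of all genes were lower and 4.24% higher, and their median log2 ratio was −0.05 beside −0.07 for all genes. At 6 h 1 was lower and 3 higher, where 1.14% and 1.8% of all genes were. Ratios of list genes, here and in the paragraphs that follow, are of (CPM + 1). The same shares of all genes are the background of each list count below: 4.39% lower and 4.24% higher at 30 h, and 1.14% and 1.8% at 6 h.

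Among the genes that control NRF2, 3 of 15 were lower at 30 h and 0 higher, beside the 4.39% and 4.24% of all genes, with a median of −0.32. Keap1, which marks NRF2 for degradation, was at 91.0 CPM in the control, 77.1 CPM at 6 h and 56.5 CPM at 30 h (log2 ratio at 30 h −0.68). Mafg, a small MAF partner of NRF2, was at 85.5, 78.3 and 46.4 CPM (−0.87), and Sqstm1, the p62 protein that takes KEAP1 to autophagy, at 299, 283 and 169 CPM (−0.82). Keap1, an inhibitor of NRF2, was thus lower along with Mafg and Sqstm1. At 6 h Maff, another small MAF, was higher (22.3 to 40.2 CPM, 0.82), as was Nfe2l3, a relative of Nfe2l2 (10.6 to 19.1 CPM, 0.79). Of 25 glutathione genes that passed the filter 0 were lower and 0 higher at 30 h, with a median of 0.14. Gstp1, a glutathione transferase, was higher at 6 h (23.0 to 38.1 CPM, 0.70). Gss, the enzyme of the second step of glutathione synthesis, was at 9.85, 11.6 and 11.8 CPM, and the cystine importer's heavy chain Slc3a2 at 427, 553 and 341 CPM (−0.32 at 30 h).

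Of 14 thioredoxin and peroxiredoxin genes 0 were lower and 1 higher at 30 h (background 4.39% and 4.24%), namely Prdx4, the peroxiredoxin of the endoplasmic reticulum (47.6 to 76.4 CPM, 0.67), with a median of 0.02. Txnip, the thioredoxin inhibitor, was lower at 6 h (729 to 407 CPM, −0.84). Of 9 NADPH genes 2 were lower at 30 h, Me1, cytosolic malic enzyme (18.3 to 6.20 CPM, −1.43), and Pgd of the pentose phosphate pathway (34.6 to 19.0 CPM, −0.83), and 1 was higher, mitochondrial Idh2 (40.7 to 63.2 CPM, 0.62). The median of this list was 0.18. Of 9 haem and iron genes 1 was lower, Slc40a1, the iron exporter ferroportin, at 31.5 CPM in the control, 24.2 CPM at 6 h and 4.77 CPM at 30 h (−2.49), and the median was −0.26. In the classes Slc40a1 went from 71.1 to 10.3 CPM in aCap and from 12.3 to 1.61 CPM in gCap. Of 11 other target enzymes Slc6a9, a glycine transporter (17.5, 15.3 and 2.88 CPM, −2.25), and Pir, the iron-binding protein pirin (81.4, 65.2 and 44.6 CPM, −0.85), were lower and Ephx1, microsomal epoxide hydrolase, was higher (62.2, 48.7 and 119 CPM, 0.92), with a median of 0.02. Of 4 superoxide and peroxide genes 0 were lower and 0 higher, with Sod1 at 183, 198 and 189 CPM and Cat at 50.3, 47.0 and 40.9 CPM, and a median of −0.07.

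**Figure D5:**
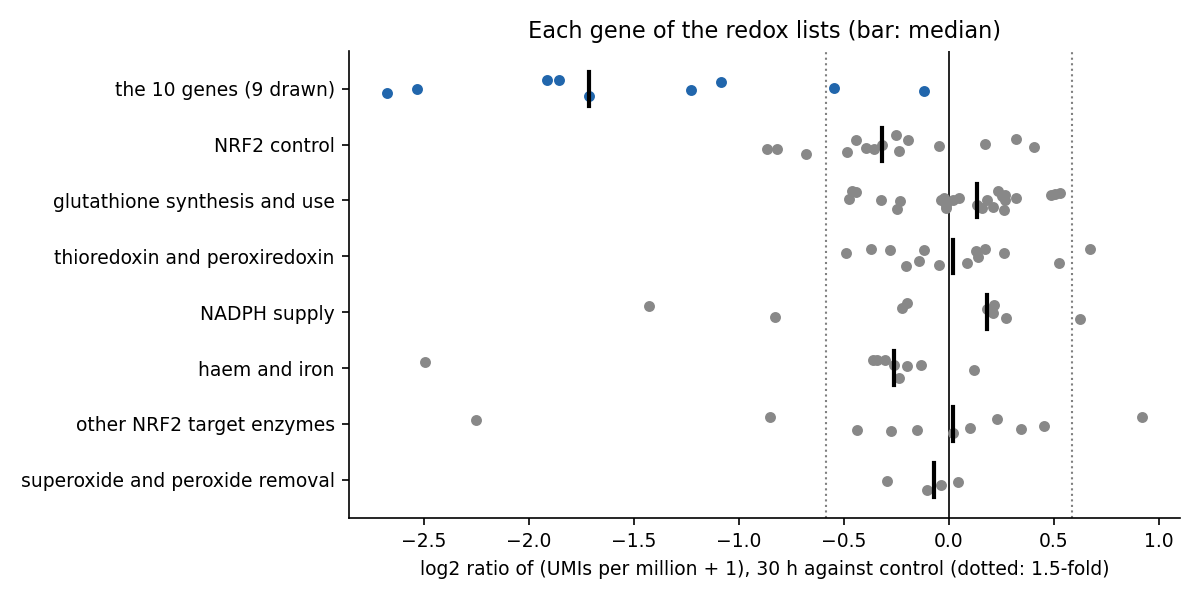
Log2 ratio of (CPM + 1) at 30 h against the control for each gene of the 7 pathway lists and for the 9 of the 10 genes that passed the filter; each point is a gene and each bar the median of its list. Medians of the 7 lists lie between −0.32 and 0.18, and that of the 9 genes is −1.71. Of the 9 genes, 4 were chosen by this same difference and the rest with it known, so nothing is read from the gap.

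Lists of other responses that share genes with NRF2 or with cell handling were counted beside them. Beside the background of 4.39% lower and 4.24% higher at 30 h, of 8 ATF4 target genes that passed the filter 2 were lower, Mthfd2 of mitochondrial folate metabolism (20.6 to 5.20 CPM, −1.80) and Asns, asparagine synthetase (33.7 to 17.8 CPM, −0.89), and Ddit4 was higher (20.3 to 38.6 CPM, 0.89). At 6 h, where 1.14% of all genes were lower and 1.8% higher, 1 was higher, Cebpb (31.1 to 47.2 CPM, 0.59). Of 3 AHR targets 0 were past 1.5-fold at 30 h and Cyp1a1 was lower at 6 h (29.0 to 18.3 CPM, −0.64). Genes of heat shock and of the response to digestion, 17 in all, had 11 higher at 6 h with a median of 0.66, led by Hspa1b (17.2 to 110.9 CPM, 2.62), Hspa1a (18.1 to 91.5 CPM, 2.28) and Hsph1 (12.9 to 56.4 CPM, 2.04). At 30 h 5 of them were lower, among them Fosb (−0.88), Fos (−0.80) and Hspa1b (−0.67), Hsph1 was higher (0.65) and the median was −0.43. In the barcodes with no UMI of Hspa1a, Hspa1b, Atf3 and Fos, 2721, 1375 and 3274 in the control, 6 h and 30 h libraries, the 30 h ratio of CPM was −2.91 for Srxn1 and −3.16 for Nqo1.

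RNA outside the cells was read from empty droplets, which are barcodes of 1 to 100 UMIs, and all 10 genes were lowest there at 30 h. Srxn1 was there at 47.0 CPM (40.2 to 54.7) in the control, 52.7 CPM at 6 h and 8.50 CPM (6.23 to 11.3) at 30 h, and Gclm at 220.8, 215.4 and 64.1 CPM (57.6 to 71.3 at 30 h). Gclc was there at 107.3, 119.8 and 27.9 CPM. Between 6 h and the control only Prdx1 differed there beyond counting error (log2 ratio 0.31, interval 0.23 to 0.40). At 30 h the EC levels of Srxn1, Txnrd1, Nqo1 and Hmox1 lay within the intervals of the free RNA, those of Gsr, Prdx1 and Slc7a11 below them and those of Gclc, Gclm and Nfe2l2 above them. In the control Srxn1, Nqo1 and Hmox1 lay within them too (42.8 CPM in 40.2 to 54.7, 21.4 CPM in 14.9 to 24.3 and 17.4 CPM in 16.6 to 26.5), while Txnrd1, at 100.5 CPM, lay above (63.5 to 81.5). By class, control levels of Srxn1, Nqo1 and Hmox1 lay below their intervals in gCap (26.1, 10.8 and 12.2 CPM). In aCap they lay above them (78.5, 36.8 and 28.0 CPM). How much of the counts was free RNA, in the control or at 30 h, was not tested. In the 31 barcodes with at least 4 melanoma markers, all of the 6 h library, Hmox1 was at 352 CPM, Prdx1 at 2571 CPM, Txnrd1 at 216 CPM and Srxn1 at 92.5 CPM. Melanoma markers summed to 23.5, 40.5 and 20.7 CPM in ECs.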

How the data were processed

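Single-cell 3′ RNA libraries of sorted mouse lung ECs were used, 1 library per group. The authors deposited raw UMI counts per gene and barcode, which the submitters' processing notes tie to Cell Ranger 7.2.0, Seurat 4.4.0 and the mm10 genome, and the deposited counts were not normalized. The file headers name the same Cell Ranger version and the study's methods an older one, and the default for intronic reads differs between them. Whether intronic reads were counted was not given in the sources used here. The members and gene lists were chosen with earlier results of these data known.

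Barcodes with 1000 to 5000 genes, under 20% mitochondrial UMIs and at least 2 UMIs of Pecam1 plus Cdh5 were kept, and their counts were summed per library and marker-gated class and scaled to CPM (scanpy 1.11.5, numpy 2.4.6, scipy 1.17.1 and pandas 2.3.3 under python 3.11.15). Figures were drawn with matplotlib 3.10.9. Doublets were not removed in the reported values, and the barcodes with the highest Scrublet scores were left out in an alternative. Levels carry exact Poisson intervals, ratios conditional binomial intervals and shares Clopper-Pearson intervals, all at 95%. With 1 library per group no test was made. A gene was counted as lower or higher past 1.5-fold in CPM with a pseudocount of 1, among genes averaging 5 CPM or more, and folds of low genes are understated on that scale. Of each list, the genes named were up to 3 with the largest rise and 3 with the largest fall past 1.5-fold at 6 h and at 30 h, and Gss, Slc3a2, Sod1 and Cat were added after their values had been seen. The 10 genes of highest likeness were named as well. The scripts were tested on simulated counts. Alternatives covered the gates, filters, thinning, free RNA and TMM factors from edgeR 4.0.16 in R 4.3.3. Gene positions are of GRCm38.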

Additional observations from a re-analysis of the deposited data

Results flagged for a closer look

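Srxn1 and Gclm differed in direction at 6 h between the capillary classes. The log2 ratio of Srxn1 against the control was −0.21 in gCap and 0.23 in aCap, and that of Gclm was −0.59 in gCap and 0.0764 in aCap. The difference between the classes was not tested, as each group had 1 library, and the aCap ratios were larger when Tbx3 was left out of the panel.

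Barcodes with no UMI of Pecam1 or Cdh5, which no comparison of ECs used, numbered 123 in the control, 118 at 6 h and 94 at 30 h. At 6 h their log2 ratios against the control were 3.41 for Hmox1 (10.6 to 113 CPM), 2.31 for Slc7a11 (54.8 to 271 CPM), 1.85 for Srxn1 (8.84 to 31.9 CPM), 1.46 for Gsr (113 to 311 CPM), 1.17 for Nfe2l2 (147 to 331 CPM), 0.95 for Gclc and 0.83 for Prdx1. At 30 h Gsr was at 158 CPM, a ratio of 0.48 (0.01 to 0.95), while Gclm (−1.07, interval −1.67 to −0.48) and Slc7a11 (−1.59, interval −2.69 to −0.59) were lower than in the control and the intervals of Srxn1 (0.26) and Gclc (−0.11) held 0. Of these barcodes 2, 17 and 4 held at least 5 UMIs of neutrophil genes, 9, 23 and 15 at least 5 of macrophage genes and 4, 15 and 2 at least 5 of melanoma genes in the control, 6 h and 30 h libraries. The part of these cells in the ratios was not tested.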

How the results depend on the processing

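At 30 h against the control, the log2 ratio of each of the 10 genes kept its sign under 11 of 12 alternatives that chose or scaled the barcodes, from −2.91 to −2.63 for Srxn1, −2.02 to −1.87 for Gclc, −1.91 to −1.65 for Gclm, −2.24 to −1.82 for Txnrd1, −3.30 to −3.02 for Nqo1, −1.82 to −1.16 for Hmox1, −1.87 to −0.51 for Slc7a11, −1.25 to −1.03 for Gsr, −0.17 to −0.05 for Prdx1 and −0.62 to −0.48 for Nfe2l2. At 6 h Srxn1 (−0.09 to 0.08), Nqo1 (−0.06 to 0.11) and Hmox1 (−0.32 to 0.17) changed sign, and Slc7a11 ran from 0.22 to 1.12. Leaving out every barcode with 2 UMIs of another cell type kept only 14, 114 and 1061 barcodes in the control, 6 h and 30 h libraries, and then 4 of the genes were lower and 1 higher at 6 h and 1 higher at 30 h against the control. With these few barcodes Prdx1 (0.09) and Nfe2l2 (0.09) turned upward at 30 h, Nfe2l2 (0.02) also turned upward and Hmox1 (−1.34) downward at 6 h, and Nqo1 and Slc7a11 gave no ratio to the control, which had 0 UMIs of them, so that the gene counted as higher is Nqo1 set against 0 UMIs. The share of all genes that was higher was 1.40% at 6 h with a mean of at least 20 CPM, 5.05% at 30 h against the control with 1 CPM and 3.46% with 20 CPM, and 5.55% and 3.55% at 30 h against 6 h. With TMM factors 5 genes of the 7 pathway lists were higher at 30 h, in place of 3. The causes were not tested. No paired analysis was possible because each group had 1 library. Counts of Slc7a11, Nqo1 at 30 h and all LEC values are limited by depth.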
